A study of Mus musculus with 4 samples.

Results

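The MAP kinase cascade genes are the kinases that pass a signal from cell surface receptors to the nucleus in successive steps, together with their partner proteins. They were taken as the genes whose symbol starts with Mapk, Map2k, Map3k, Map4k or Mapkapk and goes on with a digit. Map3k7 and Map3k8 were left out. Of 8800 genes listed for either mouse, 30 matched, of which 27 had a called site in mouse 1, 28 in mouse 2 and 25 in both. Over all 8800 genes, 7827 had one in both. The names fit the label, with one reservation: the rule also takes in Mapk1ip1, Mapk1ip1l and Mapk8ip3, which encode proteins named for binding a MAP kinase and not kinases. All 30 symbols and all 200 member sites fell inside the gene of that name in the RefSeq table of GRCm38.p6.

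The cells were macrophages grown from the bone marrow of 2 wild-type animals and treated for 3 h with lipopolysaccharide (LPS), a bacterial cell wall component. Untreated cells were not analysed here, and the labels used give neither strain nor age. Libraries were made from poly(A)-selected RNA. Each mouse gave 1 library of RNA captured with an antibody against N6-methyladenosine (m6A), called IP, and 1 input library of RNA not captured. The names of the deposited tables also carry the term NTC, which the labels leave unexplained. Macrophage markers carried called sites in 10 of 10 cases, Spi1, Cd14 and Csf1r among them. Of the markers of other cells, sites were called for 2 of 7 of T and B cells, 4 of 7 of neutrophils and 1 of 6 of stroma and endothelium. Each of these called markers of other cells had a site enriched in both mice. The share of all annotated genes with a called site was not counted.

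In the cascade, a MAP4K or another upstream signal activates a MAP3K, which phosphorylates a MAP2K, which in turn phosphorylates a MAP kinase. In macrophages exposed to LPS, the ERK, JNK and p38 branches of this cascade drive the transcription of inflammatory genes and control the decay and translation of their mRNAs. The m6A mark is placed on adenosines of mRNA during transcription, is frequent near stop codons and in long exons, and influences how long a transcript lasts and how well it is translated.

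Member transcripts carried 162 called sites in mouse 1 and 175 in mouse 2. A called site is 1 nucleotide listed by the authors, with their score and with their fold, which divides the IP's read starts there by those of the same animal's input. The depth of the libraries is unknown here, so a single fold has no error, and both mice's folds are given in its place. With 1 IP and 1 input library per animal, all comparisons with other genes are descriptions without a test. A site was taken as enriched at a fold of at least 8. In mouse 1, 142 member sites were enriched, or 87.7% (exact 95% interval 81.6% to 92.3%), beside 81.7% of all called sites. In mouse 2, 139 were enriched, or 79.4% (72.7% to 85.2%), beside 79.1% of all sites. These intervals cover counting error only, and sites of 1 transcript are not independent. A site enriched in both mice at the same nucleotide is called shared below, and there were 111 of these. Of the enriched member sites, 78.2% in mouse 1 and 79.9% in mouse 2 were shared, close to the 78.5% and 77.6% over all genes.

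Of the 25 members with a called site in both mice, 22 carried a shared enriched site (88.0%), near the 86.9% of all 7827 such genes. The median number of shared enriched sites per marked gene was 3.5, beside 3 over all genes. A single such site was found in 1 of the 22 genes (4.55%), Map3k13, beside 28.1% over all genes. At least 5 were found in 9 of the 22 (40.9%), beside 29.6%. The 6 leading genes, Map3k11 with 12, Map2k4, Map3k3 and Mapk14 with 10 each, Mapk6 with 9 and Map3k10 with 8, held 59 of the 111 sites (53.2%).

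**Figure D1:**
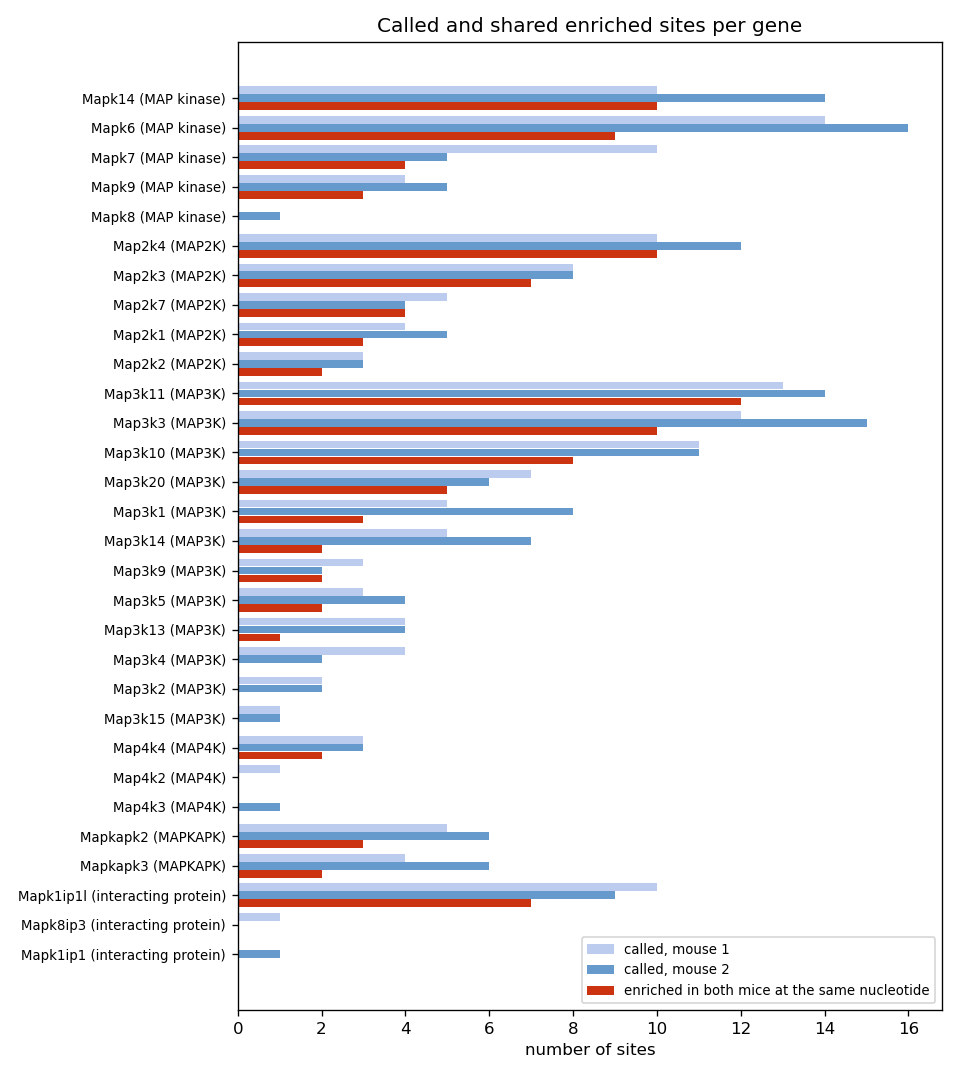
Number of sites per gene (x axis) for the 30 MAP kinase cascade genes, grouped by tier; bars show called sites in mouse 1, called sites in mouse 2 and sites enriched in both mice at the same nucleotide. Map3k11 has the most shared enriched sites, 12, and 8 genes have none.

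The 3' UTR held 57 of the 111 shared enriched sites (51.4%, exact interval 41.7% to 61.0%), beside 37.3% of the 29288 shared enriched sites of all genes. Coding sequence held 37 (33.3%, 24.7% to 42.9%), beside 42.4%, and the 5' UTR held 11 (9.91%, 5.05% to 17.0%), beside 13.6%. The share in the 3' UTR lay between 47.5% and 55.9% when each of the 6 leading genes was left out in turn. The tiers were unlike each other: MAP2K genes had 19 of 26 sites in the 3' UTR and 0 of 26 in coding sequence (exact upper limit 13.2%, or 11.5% if 3 counts are allowed for), while MAP3K genes had 23 of 45 in coding sequence. MAP kinases lay between, with 11 of 26 in coding sequence and 12 of 26 in the 3' UTR. These differences were not tested, because the sites of a tier come from few genes.

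**Figure D2:**
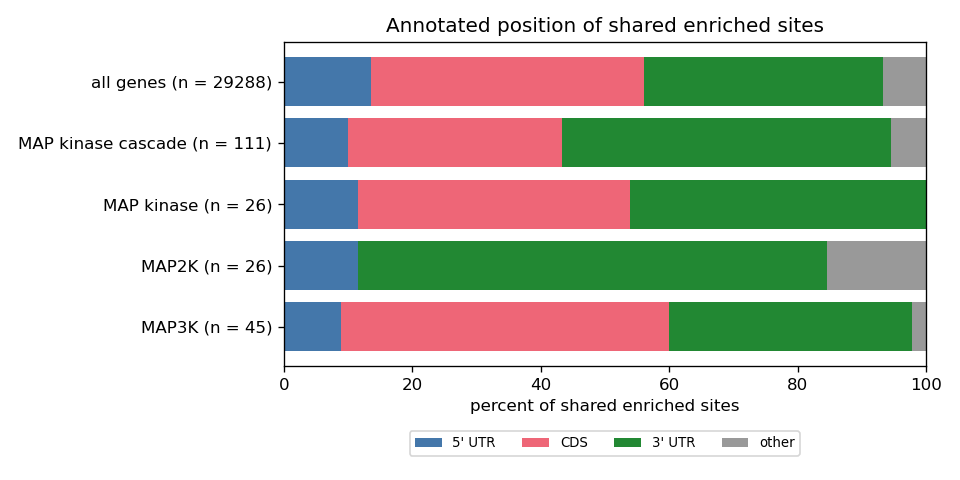
Annotated position of shared enriched sites as a percentage (x axis) for all genes, the MAP kinase cascade and its 3 largest tiers, with the number of sites beside each bar. The cascade has 51.4% in the 3' UTR against 37.3% over all genes, and the MAP2K bar has no coding sequence segment.

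Among the MAP kinases themselves, the most enriched site of the cascade lay in Mapk6, which encodes the atypical kinase ERK3. It was in coding sequence on the minus strand of chromosome 9 at 75398105 (mm10), where the fold was 223 in the first mouse and 522 in the second. Below, a pair of folds in parentheses gives mouse 1 before mouse 2. Coding sites followed downstream at 75398069 (78.1 and 97.6) and 75398012 (127 and 76.8). Of the 9 shared enriched sites of Mapk6, 8 lay within 500 bases of the strongest. They ran from 5' UTR sites at 75398372 (33.4 and 27.4) and 75398303 (14.8 and 19.5) into coding sequence, the annotation changing in the 198 bases between 75398303 and 75398105. The remaining one, at 75389100, differed more between the mice than any other shared enriched site of the cascade, with 40.1 and 9.05, or 2.15 on the log2 scale.

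Mapk14, which encodes p38 alpha, the target of the classical p38 inhibitors, had 10 called sites in mouse 1 and 14 in mouse 2, and every one was enriched. The 10 shared ones comprised 9 in the 3' UTR and 1 in the 5' UTR at chromosome 17, 28691430 (10.03 and 26). The strongest, at 28748208 (48.1 and 29.4), lay 197 bases from the annotated end of the gene, and the next was at 28747385 (36.1 and 27.4). Of the 4 members with at least 10 shared enriched sites, Mapk14 had the lowest folds at its strongest site. Mapk9, which encodes the kinase JNK2, carried 3 shared sites within 123 bases of its 3' UTR on chromosome 11, led by 49883327 (48.1 and 22.1). Its relative Mapk8, encoding JNK1, had 1 called site, in the 5' UTR of mouse 2 (10.6), and none in mouse 1. In Mapk7, the gene of ERK5, all called sites were in coding sequence: 10 in mouse 1 and 5 in mouse 2, of which 4 were shared. The strongest shared one was at 61491430 on chromosome 11 (17.05 and 11.6). The folds of Mapk7 stayed low, from 10.03 to 17.05 in mouse 1 and from 11.6 to 16.4 in mouse 2 over the shared sites.

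No site was listed under Mapk3, the gene of ERK1, in the rows analysed here, nor any site of another name inside that gene. The same held for the p38 genes Mapk11, Mapk12 and Mapk13 and for Mapk10, the JNK3 gene. In all, 20 of the 50 protein-coding symbols of this family in RefSeq had none, Map2k6, Map3k6, Map3k12, Map4k1, Map4k5 and Mapkapk5 among them. The share without a site over all protein-coding genes was not counted, so this count is not a trait of the family. A gene without a called site may be one with few transcripts or one without enriched reads, and the tables cannot tell these apart.

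All 5 MAP2K genes carried shared enriched sites. Map2k3, encoding the p38 kinase MKK3, had 7, all in its 3' UTR and within 326 bases of each other on chromosome 11. The strongest, at 60952251, had folds of 90.0 and 181, and was followed downstream by 60952279 (25.4 and 39.8), 60952308 (33.7 and 34.5) and 60952335 (28.1 and 22.0). Map2k4, encoding MKK4, which acts on JNK and p38, had 10 shared sites on the minus strand of the same chromosome, 8 of them in the 3' UTR. Its strongest site by the mean of both mice, 65690673, was high in mouse 1 (111) and lower in mouse 2 (33.5), while 65690377 went the other way (24.1 and 86.7). These 2 lay in a stretch of 7 shared sites within 500 bases of the strongest, and the mice differed in which nucleotide of it was highest.

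Map2k7, the gene of the JNK kinase MKK7, had 4 shared sites within 137 bases on chromosome 8, led by 4245945 (35.6 and 74.1). Mouse 1's table places all 4 in an intron of a noncoding RNA, and mouse 2's table places 1 of them, at 4245952 (40.1 and 46.2), in a 3' UTR, so the position of this group depends on the transcript chosen. By the geometric mean of both mice at the strongest site, the kinases of the ERK branch came lowest of this tier. Map2k1, encoding MEK1, had 3 shared sites, with its strongest in the 3' UTR on chromosome 9 at 64186331 (25.3 and 18.02). Map2k2, encoding MEK2, had 2, both in the 3' UTR on chromosome 10, at 81123793 (60.2 and 19.9) and 81123821 (26.1 and 16.9). Each also had a called coding site that passed the limit in mouse 1 alone, with 9.03 and 3.85 in Map2k1 and 15.4 and 7.06 in Map2k2.

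**Figure D3:**
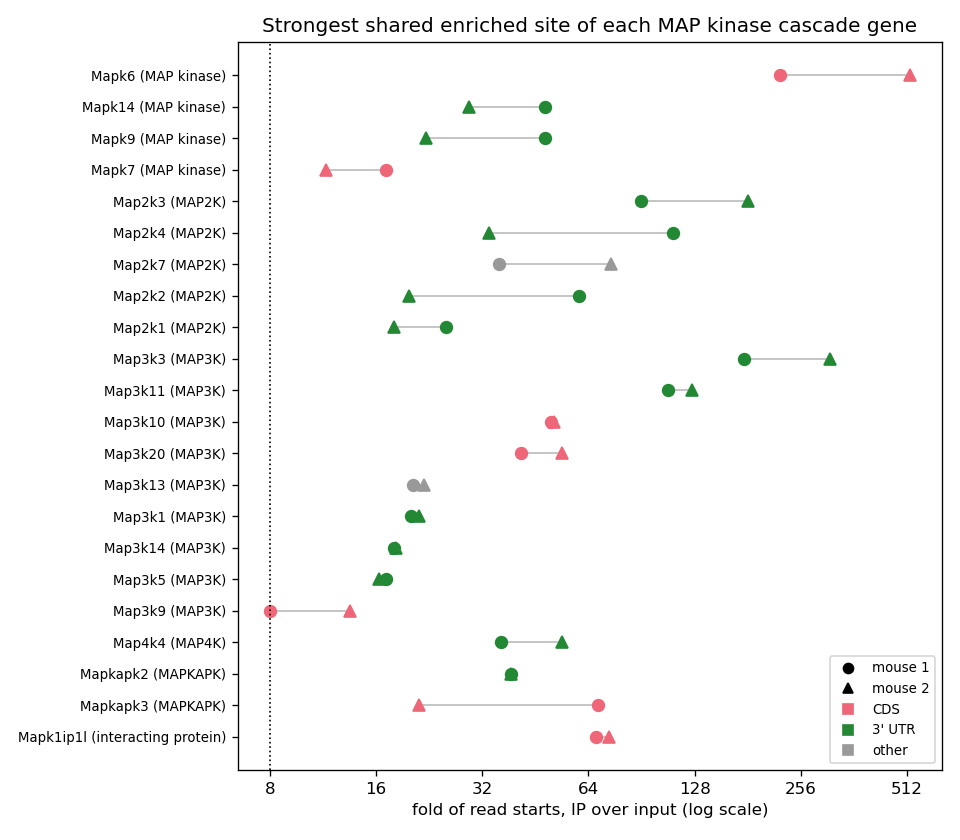
Fold of read starts, IP over input (x axis, log scale), at the strongest shared enriched site of each of the 22 genes that have one; circles are mouse 1, triangles mouse 2, colour is the annotated position and the dotted line is the limit of 8. Mapk6 reaches 223 and 522, and Map3k9 sits nearest the limit with 8.02 in mouse 1.

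Of the 12 MAP3K genes, 9 carried shared enriched sites, and 2 stood well above the rest. Map3k3, which encodes MEKK3, a kinase of Toll-like receptor and interleukin 1 signalling, had its strongest site in the 3' UTR on chromosome 11 at 106154348, with folds of 176 and 310.1. Its 10 shared sites lay within 861 bases, on both sides of the annotated end of the coding sequence. Coding sites at 106154106 (107 and 41.3), 106154143 (96.8 and 63.2) and 106154190 (53.2 and 92.4) were followed, after 158 bases, by the strongest site and by 106154383 (49.1 and 135), 106154466 (58.2 and 115) and 4 more. Every one of the 10 had a fold of at least 30.8 in mouse 1 and at least 32.5 in mouse 2.

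Map3k11, encoding the mixed-lineage kinase MLK3, had the most shared enriched sites, and they lay in a group of 5 near the start of the gene and a group of 7 near its end. Sites in the 5' UTR on chromosome 19 at 5689846, 5689950 and 5689969 had folds of 9.53, 16.05 and 24.1 in mouse 1 and 15.4, 14.4 and 11.6 in mouse 2. At the other end, coding sites up to 5702280 (19.1 and 56.8) were followed after 169 bases by the 3' UTR, where 5702533 was strongest (107 and 126). Its relatives differed in position: Map3k10, encoding MLK2, had 7 of 8 shared sites in coding sequence, led by chromosome 7, 27673402 (50.1 and 51.03), and Map3k9, encoding MLK1, had 2 coding sites near the limit (8.02 and 13.5 for the stronger). In Map3k20, the gene of ZAK, a kinase that senses stalled ribosomes, all 5 shared sites were coding and lay within 341 bases of chromosome 2, with 72441840 (41.1 and 53.9) and 72441789 (34.1 and 49.1) highest.

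The strongest sites of Map3k1 (20.1 and 21.2), Map3k14 (18.1 and 18.3) and Map3k5 (17.05 and 16.4) were in 3' UTRs. These encode MEKK1, the NF-kB-inducing kinase NIK and the stress kinase ASK1. Map3k13 had 4 called sites in each mouse, all in a distal intron, of which 1 was enriched (20.4 and 21.8). Map3k2, Map3k4 and Map3k15 had called sites in both mice and none shared. Map3k2, encoding MEKK2, had 2 called sites in each animal but at different nucleotides, the highest in a noncoding exon in mouse 1 (15.04). Map3k4, encoding MEKK4, had 1 site called in both mice, in the 3' UTR, with 10.03 in mouse 1 and 4.81 in mouse 2. The highest site of Map3k4, also in the 3' UTR, was called in mouse 1 alone (13.04). The single site of Map3k15, in a distal intron, had a fold of 1.11 and 0.815, so it was listed without enrichment.

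**Figure D4:**
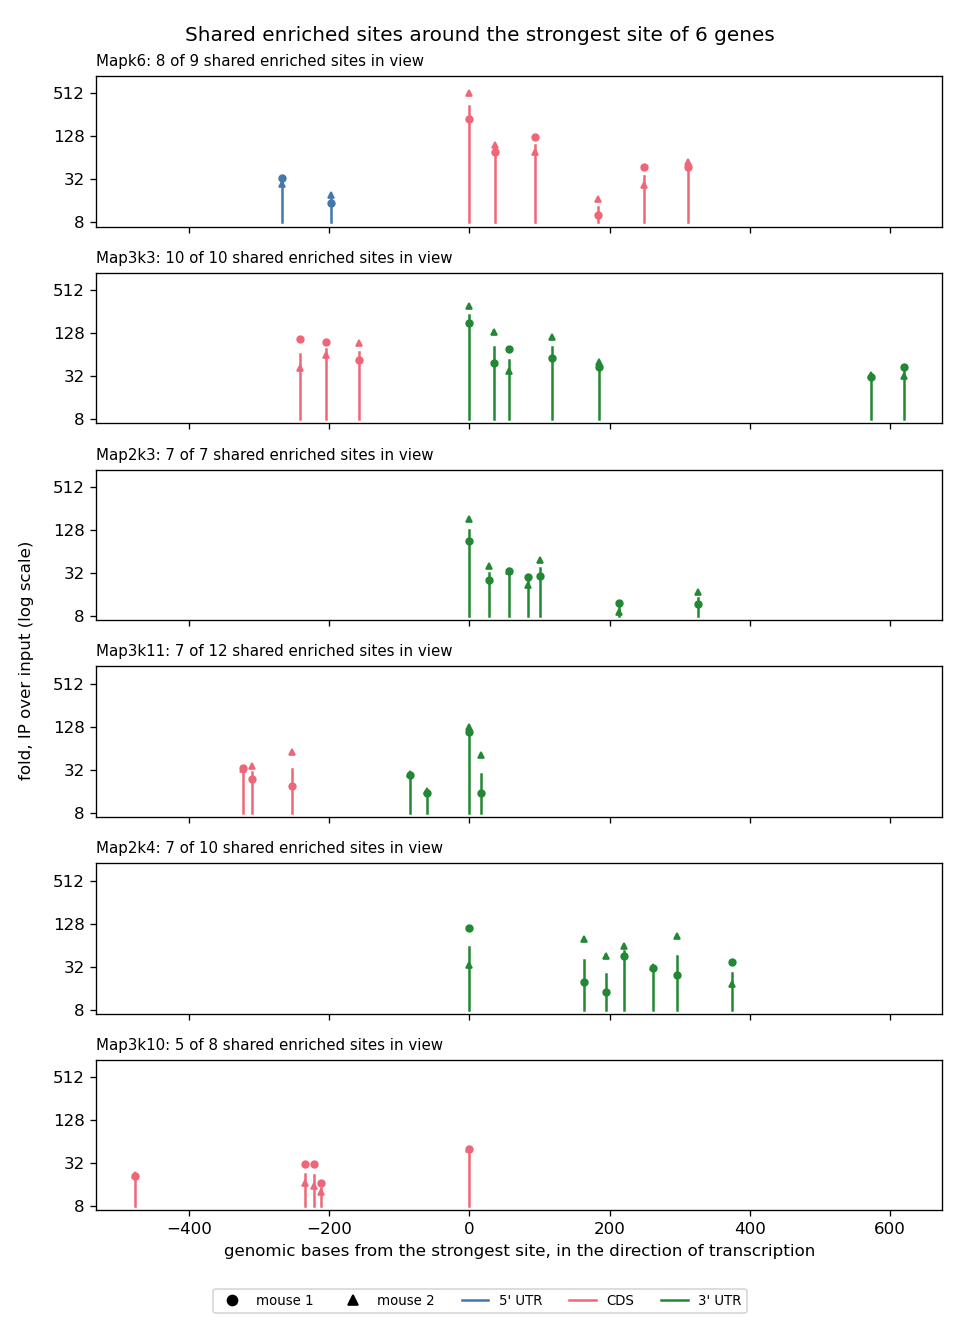
Shared enriched sites of 6 genes by distance in genomic bases from the strongest site (x axis, in the direction of transcription) and fold (y axis, log scale); circles are mouse 1, triangles mouse 2, colour is the annotated position and each stem ends at the geometric mean of both. In Map3k3 coding sites pass into 3' UTR sites over a gap of 158 bases, and all 7 sites of Map2k3 are in the 3' UTR.

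Among the MAP4K genes, Map4k4, whose product HGK acts upstream of JNK, carried 2 shared sites in its 3' UTR on chromosome 1, at 40024999 (36.1 and 53.9) and 40024964 (14.04 and 25.5). Map4k2 had 1 site, in mouse 1 (10.03), and Map4k3 had 1, in mouse 2 (3.53). The kinases that p38 activates, MK2 and MK3, stabilise cytokine mRNAs by phosphorylating proteins bound to them. Mapkapk2, the MK2 gene, had almost the same fold in both mice at its 3' UTR site on chromosome 1, 131055022 (38.7 and 38.6). It also had shared sites at a 5' splice site (25.1 and 8.67) and in the 5' UTR (12.2 and 16.5). Mapkapk3, the MK3 gene, had 2 shared sites only 33 bases apart on chromosome 9, 1 on each side of the annotated end of the coding sequence: 107256183 in coding sequence (68.2 and 21.2) and 107256150 in the 3' UTR (21.1 and 29.4).

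Of the partner proteins, Mapk1ip1l had 7 shared sites. The strongest was in coding sequence on chromosome 14 at 47310675 (67.2 and 73.2), and 4 of its 5 in the 3' UTR lay together, from 47322025 (27.6 and 30.5) to 47322118 (37.6 and 22.6). Mapk8ip3, encoding the JNK scaffold JIP3, had 1 site, in mouse 1 (16.05). Mapk1ip1 had 1, in mouse 2 (7.70). Among the 9 genes with at least 5 shared enriched sites, 53 of 78 sites (67.9%) lay within 500 bases of the gene's strongest, the strongest itself counted. Over all 2011 such genes the share was 57.2%.

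Between the animals, the folds of the 111 shared sites had a median difference of 0.61 on the log2 scale regardless of sign, beside 0.49 over all shared enriched sites. They were within 2-fold of each other at 83 sites (74.8%, beside 77.6%). Mouse 1 was higher at 48 and mouse 2 at 63. The median of the geometric mean fold of both mice was 24.8, beside 21.8 over all shared enriched sites. Across these sites Pearson's r of the log2 folds was 0.69 (0.66 over all genes) and Spearman's rho 0.63, as a description over sites that share 2 pairs of libraries and, in part, their transcripts. Folds of at least 32 in both mice were found at 28 sites (25.2%, beside 20.7%). Folds follow read starts, and how far transcript abundance sets their order was not tested. Of the 137 member sites called in both mice, 12 were enriched in mouse 1 alone, 5 in mouse 2 alone and 9 in neither. Sites called in 1 mouse only, 25 in mouse 1 and 38 in mouse 2, had median scores of 13.2 and 16.4, while those called in both had 40.9 and 41.3. Neither these counts nor these scores were taken over all sites, so whether the members differ from the series here is not known.

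**Figure D5:**
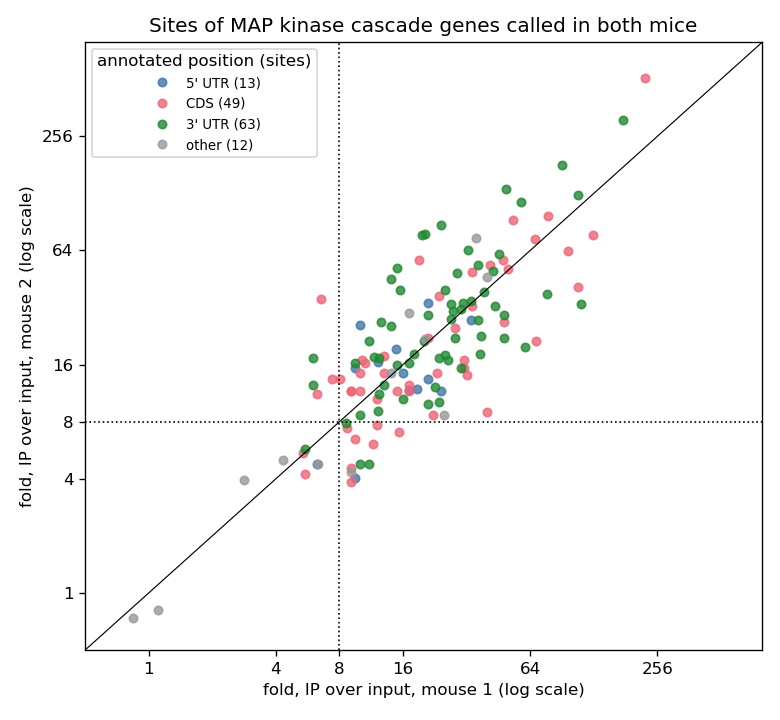
Fold of IP over input in mouse 1 (x axis) and mouse 2 (y axis), both on a log scale, for the 137 member sites called in both mice; colour is the annotated position, dotted lines mark the limit of 8 and the solid line is equality. The 111 sites in the upper right quadrant are enriched in both, and 9 are enriched in neither.

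Sequence can be set beside the sites near annotated starts, through the RefSeq promoter windows of GRCm38.p6 (250 bases before to 50 after a start). The start of a window need not be the outermost one of its gene. For the sites of Mapk8, Map3k5, Map3k10, Mapkapk2, Map3k20, Map4k3 and Mapk6 it lay inside the gene's bounds. Bases are counted from the start of the window used, not from the outer end of the gene. Of the 200 member sites, 13 fell in such a window of their own gene, none of them among the strongest. To show what surrounds a called site near an annotated start, 8 of the 13 were selected. They are the shared enriched ones, those on base 1, those with GAC, the only site of Mapk8 and a second site of Map3k10, 4 bases from the first. In each line the capital letter is the called nucleotide.
Map2k1, site at base 9 (chr9:64253585-64253609, minus strand): ctccagtccctcActgggacgtctg
Map2k1, site at base 1 (chr9:64253593-64253617, minus strand): ccctcaccctccAgtccctcactgg
Map2k3, site at base 1 (chr11:60932042-60932066, plus strand): ccggcgctgcccAgtgtggctttgg
Mapkapk2, site at base 38 (chr1:131097794-131097818, minus strand): ccccgggctggtActtctcggcgcg
Mapk8, site at base 7 (chr14:33447140-33447164, minus strand): cgcgtctctgttAgtcagcggagcg
Map3k10, site at base 6 (chr7:27674564-27674588, minus strand): gcggggagagggActtagggggccg
Map3k10, site at base 10 (chr7:27674560-27674584, minus strand): ggagagggacttAgggggccgacca
Map3k5, site at base 43 (chr10:19934556-19934575, plus strand): tctgggctggggActccggg

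The called nucleotide was an A in 13 of 13 member sites and in all 5321 such sites of the series. The site caller is not given, and if it lists only adenosines this outcome was fixed beforehand. A C stood before it in 7 of the 13 member sites (53.8%) and in 61.6% of the 5321. The triplets GAC and AAC, which form the middle of the usual m6A motif, were read on the transcript's strand with the site as their central A. They were found at 2 of the 13, in Map3k10 at base 6 and Map3k5, and at 2.82% of the 5321. Somewhere in the window, on either strand, GAC was present in 99.9% of all promoter windows and AAC in 99.1%. Counted from the annotated start that defines the window, 11 of the 13 sites lay at bases 1 to 50. Those of Map2k3 (7.02, mouse 2) and Map2k1 (5.46, mouse 2) fell on base 1 itself, in both genes also the outermost annotated start. An adenosine at the first transcribed base can carry a related mark, m6Am, which antibodies against m6A also bind. Whether that mark is present at these bases was not tested. Only the sites at base 9 of Map2k1 (18.7 and 11.9) and base 38 of Mapkapk2 (12.2 and 16.5) were shared and enriched.

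The other genes of the pathway were taken from 8 lists of 104 symbols. Of 77 with a called site in both mice, 72 (93.5%) carried a shared enriched site, beside 86.9% of all genes. The median geometric mean fold of the strongest site was 38.3 in the 22 cascade genes, 35.8 in these 72 and 28.0 over all genes. A strongest site is the highest of a gene's sites, so it tends to be higher where there are more of them. These medians and those of the lists below were not adjusted for the number of sites. Upstream, all 14 genes of the RAS list called in both mice carried one, Hras (162 and 164) among them. All 6 genes of the TAK1 and TPL2 module called in both mice did, led by the adaptor gene Tab2 with 23 (143 for the strongest in either mouse) and Nfkb1 (53.5 and 226).

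The phosphatases that switch MAP kinases off had the highest median of the lists, 74.7. All 13 genes called in both mice carried a shared enriched site, led by Dusp1 (190 and 246) and Dusp16 (169 and 187). The counts that follow are likewise of genes called in both mice. Of the kinases below the MAP kinases, 7 of 7 carried one, led by Rps6ka3 (46.1 and 25.5) and Mknk1 (29.6 and 36.6), as did 7 of 7 other Ste20 and atypical kinases, led by Pak2 (49.1 and 59.7) and Stk4 (85.2 and 26.96). Among scaffolds 5 of 7 did, with Lamtor1 (74.6 and 57.4) and Spag9 (103 and 26.6) highest, and Lamtor2 and Lamtor3 without one. Among nuclear targets 16 of 17 did, with Jun (443 and 528) and Jund (393 and 421) highest and Mef2c without one. Among RNA-binding targets 4 of 6 did, with Hnrnpa0 (373 and 195) and Zfp36 (64.7 and 83.7) highest, and Elavl1 and Zfp36l1 without one.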

How the data were processed

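The authors deposited 1 table of called sites per mouse (IP against input), not pooled. Per the submitters' processing notes, the tools included UMI-tools 0.5.1, cutadapt 2.7 and STAR 2.6.0c, and the builds were mm10 and hg38. Neither the site caller nor the annotation is given in the sources used here. Each site's deposited score, named as such per the file headers, exceeded 10 throughout. Per the file headers, the authors' fold is a ratio of read starts. It was a whole number times a constant (1.003 in mouse 1, 0.963 in mouse 2) at 62.1% of all called sites in mouse 1 and 62.0% in mouse 2. An exact ratio of 8 was thus 8.02 in mouse 1 and 7.70, under the limit, in mouse 2. Read starts of the input are not given, so how many folds rest on an input of few read starts was not tested.

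Sites were joined on chromosome, strand and nucleotide (the interval's end, 1-based), and where the annotations differed that of mouse 1 was used. Shares have exact (Clopper-Pearson) 95% intervals. With no read numbers and 1 IP library per mouse, no test between libraries was run. The members and lists were chosen with earlier results of these data known. Every member is named, with folds of its strongest shared site. Lists name their 2 highest genes and up to 2 without a shared site, except for a gene not reported here. Zak in the list of Ste20 and atypical kinases is an older symbol of Map3k20. RefSeq sequences (GRCm38.p6) were matched by symbol and strand. The joining step was tested on simulated data with 1 chromosome and 1 strand, so only matching by position was tried there. Python 3.11.15, pandas 2.3.3, NumPy 2.4.6, SciPy 1.17.1 and Matplotlib 3.10.9 were used.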

Additional observations from a re-analysis of the deposited data

How the results depend on the processing

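Fold limits of 4 and 16, a score of at least 20, sharing within 5 bases, merging within 5 bases, joined gene names, leaving out either mouse, and a limit set before each table's constant were tried; the last was chosen after seeing the data. The count of members with an enriched site ranged from 20 to 26, and the shares in coding sequence and the 3' UTR stayed within the reported intervals. At a fold of 16, 63 shared sites were left, with 3.17% in the 5' UTR, and Map3k9 and Mapk7 dropped out; at 4, Map3k4 was added. The median geometric mean fold, 24.8, became 20.2 at a limit of 4, 37.4 at 16, 29.4 at a score of 20, 22.9 before the constant, and 19.3 to 19.9 with 1 mouse left out, which drops the need for sharing. No member was in a joined name. No paired analysis was possible because the tables hold no values per library; the fold already compares IP with input within each animal.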

Other observations

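Some member sites were called in 1 mouse only but had a neighbour called only in the other. There were 6 such pairs within 30 bases, in 5 genes. Such pairs were not counted over all genes, so whether the members differ from the series here is not known. In Map3k10 a coding pair lay 6 bases apart (8.02 in mouse 1, 7.70 in mouse 2) and a 5' UTR pair 4 bases apart (10.03 and 11.6). In Mapkapk3 a 3' UTR pair lay 30 bases apart (17.05 and 18.3), and in Map3k2, which has no shared site, a coding pair lay 14 bases apart (9.03 and 12.5). The remaining pairs were in the coding sequence of Map3k1 and Map3k4.

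At 2 member sites called in both mice the fold was under 1.5 in each. Beside the intronic site of Map3k15, this was a 3' splice site of Map3k3 on chromosome 11 at 106153964, with folds of 0.842 and 0.738 and scores of 17.4 and 24.9. These scores lie above the listing minimum of 10 although read starts were fewer in the IP than in the input. How many sites of the whole series had a fold under 1.5 in both mice was not counted. In Map3k10 a coding site at 27673847 had similar scores in both mice (42.9 and 47.5) but folds of 6.52 and 35.6.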
